A study of Mus musculus with 6 samples.

Results

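A set of 10 transcription factor genes that act in myeloid cells was examined in peripheral blood (PB) neutrophils: the Ets factors *Spi1*, *Ets2* and *Etv6*, the 3 Runx genes, the repressor *Gfi1*, and the Krüppel-like factors *Klf2*, *Klf4* and *Klf6*. The members were taken by gene name, and all 10 were found, each on 1 row, among the 29097 genes listed. With a mean of at least 1 FPKM (fragments counted per length of transcript and per mapped fragments of the library) over the libraries required for testing, 9 of the 10 were among the 10440 genes tested, and *Gfi1* fell below that level.

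Ets factors bind DNA through a winged helix domain at sites with a GGAA core. PU.1, the product of *Spi1*, is required for the myeloid lineages and turns on the genes of cytokine receptors and of the phagocyte oxidase, whereas Etv6 acts mainly as a repressor. Runx proteins bind TGTGGT sites together with their partner Cbfb: *Runx1* is needed for definitive hematopoiesis, *Runx2* is best known from bone and *Runx3* from cytotoxic lymphocytes. Gfi1 recruits histone modifying corepressors and holds down monocyte genes in granulocyte precursors. Klf factors bind GC-rich and CACCC sites through zinc fingers, with *Klf2* known for quiescence and trafficking, *Klf4* for monocyte differentiation and *Klf6* for inflammatory responses of myeloid cells.

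The mice were wild type C57BL/6 males of 8 weeks. Ligature-induced periodontitis (LIP, labelled Lig) was produced by silk ligatures on the second molars for 14 d, and control mice (Ctrl) stayed without ligatures for that time. CD45+CD11b+Ly6G+ cells were sorted from PB, cells of 5 mice were pooled for each library, and Smart-seq2, a full-length RNA-seq method for small inputs, gave 3 libraries per group. A replicate is therefore a pool of animals, so p-values describe the spread between pools, and variation between single mice cannot be seen. In bulk samples of this kind, fewer cells of a type and less RNA per cell cannot be told apart.

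The libraries held 52186555 to 57262379 counts each. Libraries of a group differed by more than counting error, and none was a copy of another. The cells carried the transcripts of neutrophils, with *S100a8* and *S100a9* the most abundant of 15 mature neutrophil markers, and also those of other blood cells, as the plot of marker lists shows. The summed FPKM of the mature neutrophil markers was 16649 to 20084 in Ctrl and 57477 to 61974 in LIP, and all 15 genes were called higher in LIP. Erythroid markers, led by *Hba-a1* and *Hba-a2*, summed to 180714 to 186931 in Ctrl and 19488 to 20197 in LIP. Of the 10 erythroid markers tested, 9 were called lower and 1 higher. B cell markers, led by *Ighm* and *Cd79a*, summed to 4163 to 4470 in Ctrl and 592.6 to 655.0 in LIP, and all 14 were lower. T cell markers summed to 295.6 to 316.6 in Ctrl and 50.6 to 66.7 in LIP, and all 15 were lower. Platelet markers summed to 848.6 to 1104 in Ctrl and 1779 to 2089 in LIP, and all 12 were higher. Monocyte and dendritic cell markers summed to 279.5 to 292.3 in Ctrl and 322.0 to 346.0 in LIP, with 10 of 12 tested genes higher and 1 lower. NK cell markers summed to 518.8 to 601.2 in Ctrl and 449.0 to 500.4 in LIP. No marker was at 0 in all 6 libraries. These shifts moved with every member result given here, and their part in those results was not tested.

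**Figure D1:**
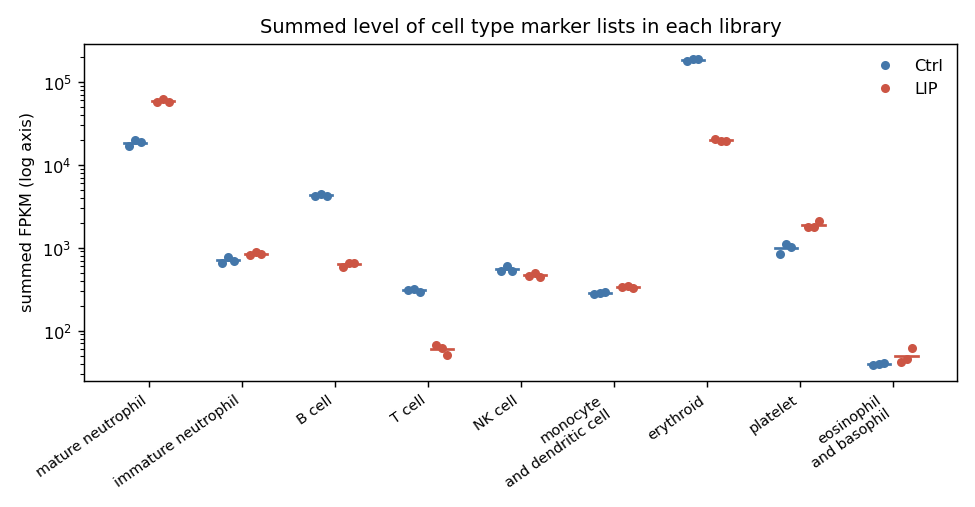
Summed FPKM of the cell type marker lists (log axis) in each of the 3 Ctrl (blue) and 3 LIP (red) libraries, with the group mean as a line. The mature neutrophil sum was higher in all LIP libraries than in all Ctrl libraries, while the erythroid, B cell and T cell sums were lower in all of them.

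Because these abundant transcripts shifted, the scale on which libraries are compared bears on each level. FPKM divides by all mapped fragments of a library, whereas TMM scaling (the trimmed mean of M values of edgeR) sets the bulk of genes level between libraries. Levels are given below in FPKM, which allows genes to be compared with each other. Fold changes and adjusted p-values come from the quasi-likelihood test of edgeR on counts with TMM scaling, adjusted by the Benjamini-Hochberg method over all genes tested, and a gene was called at an adjusted p under 0.05. The middle log2 fold change over all tested genes was -0.09 under TMM and -0.42 with plain library totals.

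In each Runx gene, 1 start window holds a short shared run with the letters of the Runx site. RefSeq start windows (GRCm38.p6, 250 bases before to 50 after the start) were found for 9 of the 10 members, 12 windows in all, and none for *Spi1*. The Runx site TGTGGT, searched on both strands, was in 3 of the 12 windows, 1 each of *Runx1*, *Runx2* and *Runx3*, and in 16.8% of all 32851 windows. In all 3 Runx genes, 2 such matches lie in the same 18-base run, read here on the gene's own strand as ACCACA. The run is shown because it was in only 4 of the 32851 windows: those of *Runx1*, *Runx2*, *Runx3* and *Gm16225*, whose window overlaps that of *Runx3* on the opposite strand. It starts 27 bases after the start in *Runx1* (chr16:92826025-92826054 for the stretch shown, minus strand) and 22 bases after it in *Runx2* (chr17:44814583-44814612, minus strand). In *Runx3* it starts at base -136 (chr4:135120503-135120532, plus strand). Capitals mark the shared run.
Runx1: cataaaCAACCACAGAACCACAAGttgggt
Runx2: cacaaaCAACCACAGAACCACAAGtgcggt
Runx3: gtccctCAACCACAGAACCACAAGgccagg

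Of the other sites searched, the Ets site GAGGAA was in 1 of the 12 windows (*Runx1*) and in 28.3% of all windows, and the Gfi1 site AAATCA was in 1 (*Etv6*) and in 14.0% of all. The Klf site CCACCC was in 3 of the 12 (*Gfi1*, *Klf2* and *Runx3*) and in 31.5% of all. The 250 bases upstream of 1 *Runx3* start (chr4:135120395-135120644, plus strand) hold both kinds of site, 2 of Runx and 2 of Klf, and are shown for that reason. Beside them are the 250 bases upstream of *Runx2* (chr17:44814628-44814877, minus strand), the family member that moved the other way. The other *Runx3* window held neither kind of site. Capitals mark ACCACA and CCACCC. A match of letters is a description and not a site of binding.
Runx3: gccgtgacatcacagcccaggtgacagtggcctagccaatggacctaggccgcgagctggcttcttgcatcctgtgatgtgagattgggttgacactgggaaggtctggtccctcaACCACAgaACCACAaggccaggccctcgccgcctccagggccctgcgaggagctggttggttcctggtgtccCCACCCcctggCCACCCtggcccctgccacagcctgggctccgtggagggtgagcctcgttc
Runx2: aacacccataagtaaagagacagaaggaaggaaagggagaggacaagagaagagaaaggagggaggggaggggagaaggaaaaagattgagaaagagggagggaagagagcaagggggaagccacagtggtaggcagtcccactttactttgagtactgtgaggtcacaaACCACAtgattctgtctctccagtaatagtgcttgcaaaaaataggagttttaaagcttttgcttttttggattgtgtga

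The 10 genes fell into a high and a low class of transcript level. In Ctrl, *Klf2* was highest at 336.7 ± 12.4 FPKM (SD, n = 3), ahead of *Spi1* at 246.8 ± 16.5, *Klf6* at 201.4 ± 15.6 and *Ets2* at 74.99 ± 17.2, and no libraries overlapped between neighbours in this order. The other 6 members were under 10 FPKM. *Runx1*, *Klf4* and *Runx3* were next, at 9.55, 7.90 and 7.73 FPKM, and the neighbours among them overlapped. *Etv6* at 3.44 and *Runx2* at 2.87 FPKM overlapped as well, and *Gfi1* was last at 1.10 FPKM. In LIP the order was *Spi1*, *Klf2*, *Klf6* and *Ets2*, at 575.5, 289.7, 223.0 and 152.7 FPKM, again without overlap. *Runx1*, *Etv6*, *Klf4* and *Runx2* followed at 8.09, 7.44, 5.45 and 5.20 FPKM with overlap between neighbours, then *Runx3* at 2.93 and *Gfi1* at 0.437 FPKM. *Spi1* and *Klf2* had exchanged the first place. The members summed to 892.4 ± 9.01 FPKM in the Ctrl group and to 1270.4 ± 12.5 FPKM in the LIP group (SD, n = 3). *Spi1* held 27.6% ± 1.56 of that sum in Ctrl and 45.3% ± 2.08 in LIP, and *Klf2* held 37.7% ± 1.25 and 22.8% ± 2.10.

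**Figure D2:**
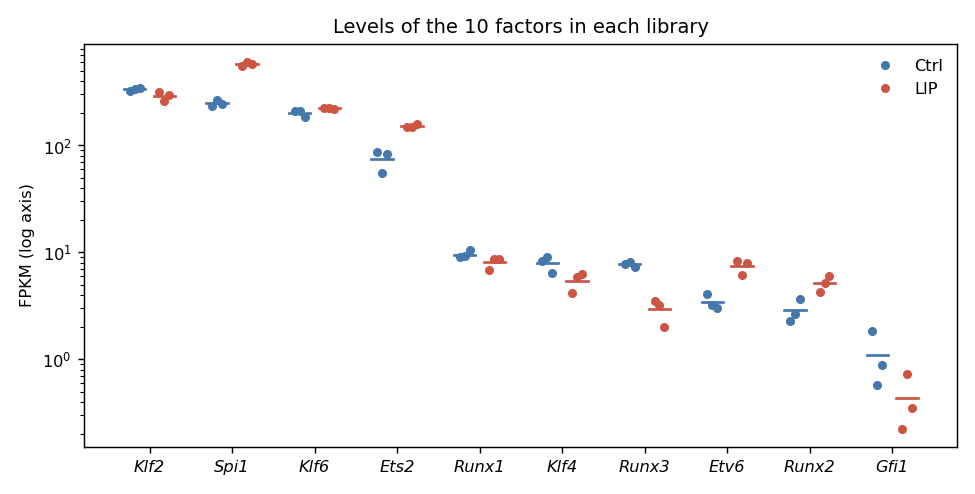
FPKM of each factor (log axis) in the 3 Ctrl (blue) and 3 LIP (red) libraries, with group means as lines, ordered by the Ctrl mean. Spi1 lies below Klf2 in all Ctrl libraries and above it in all LIP libraries, and Runx3 lies above Runx2 in all Ctrl libraries and below it in all LIP libraries.

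Of the 9 members tested, 5 were called higher in LIP (*Spi1*, *Etv6*, *Ets2*, *Runx2* and *Klf6*), 1 was called lower (*Runx3*) and 3 were not called (*Runx1*, *Klf2* and *Klf4*). Over all genes tested, 53.6% were called, 26.5% higher and 27.2% lower, so a call as such is common in this comparison. The TMM-scaled counts (CPM) of the groups did not overlap for 6 of the 9, against 63.4% of all genes, and their FPKM did not overlap for 9 of the 9, 5 above and 4 below, against 66.1% of all genes. The median log2 fold change of the 9 was 0.45. Directions depend on the scale: when libraries were set level on the 15 mature neutrophil markers, the 9 log2 fold changes were all below 0 and 8 of the 9 genes were called lower, against 90.2% of all genes tested lower and 0.335% higher, so these counts are close to the background and say nothing particular about the members. With library totals 4 members were called higher and 1 lower, against 18.2% and 40% of all genes. In the plot of the 3 scalings the members shift together and keep the same order, with *Spi1* highest and *Runx3* lowest in each. Rescaling libraries adds nearly the same amount to every log2 fold change, so the kept order is no separate result.

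**Figure D3:**
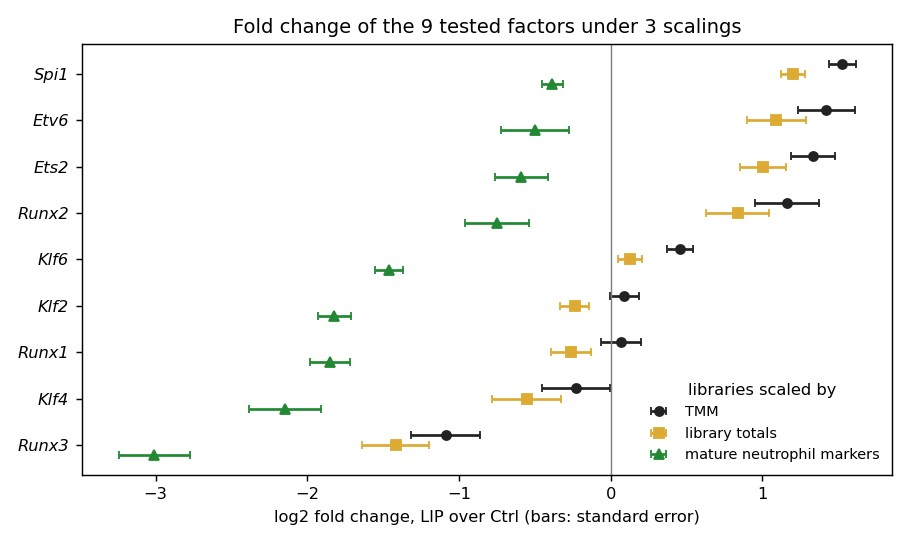
Log2 fold change of each tested factor, LIP over Ctrl, with libraries scaled by TMM (circles), by library totals (squares) or by 15 mature neutrophil markers (triangles), with standard errors as bars. Under TMM 5 factors were called higher and Runx3 lower, and with neutrophil marker scaling all 9 lie below 0, from Spi1 at -0.39 to Runx3 at -3.01.

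Among the Ets factors all 3 members rose under TMM and with library totals, and all 3 lay below 0 with the neutrophil marker scaling. *Spi1* (ENSMUSG00000002111, GRCm38 chr2:91082390-91114366, plus strand) was at 232, 264 and 244 FPKM in the Ctrl libraries and at 552, 599 and 575 FPKM in the LIP libraries. Every LIP library was far above every Ctrl library, and the spread within a group was small. Its counts were 2.88-fold higher after TMM scaling (log2 fold change 1.53 ± 0.0864 SE, edgeR adjusted p = 3.99e-07), and 6.29% of all genes tested had a larger log2 fold change. By FPKM it moved from rank 186 to rank 90 of all genes listed. Per 1000 FPKM of mature neutrophil markers, *Spi1* went from 13.4 ± 0.491 to 9.76 ± 0.2203 (SD, n = 3). All 10 members had a lower mean on this measure in LIP, whose denominator was higher there, and *Spi1* was the least reduced, at 0.730 of its Ctrl mean.

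*Ets2* (ENSMUSG00000022895, chr16:95702075-95721051, plus strand), an Ets activator that responds to Ras and MAP kinase signalling, was at 86.0, 55.2 and 83.8 FPKM in Ctrl and at 150.0, 148 and 159.8 FPKM in LIP. The second Ctrl library was low, the LIP libraries lay close together, and the groups did not overlap. The log2 fold change was 1.34 ± 0.145 SE (edgeR adjusted p = 2.93e-05), or 2.52-fold. *Etv6* (ENSMUSG00000030199, chr6:134035700-134270158, plus strand), a repressor needed for hematopoietic stem cells and platelets, was at 4.13, 3.19 and 2.996 FPKM in Ctrl and at 8.25, 6.09 and 7.98 FPKM in LIP. All LIP values were above all Ctrl values, and the log2 fold change was 1.42 ± 0.189 SE (edgeR adjusted p = 0.000123). *Gm43982* and *Gm43984* overlap *Etv6* on its own strand and *Gm17089* on the other, so some of its reads could be shared with them.

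Ratios of FPKM taken inside each library do not depend on how libraries are scaled to each other. *Spi1* over *Ets2* averaged 3.47 ± 1.15 over the Ctrl libraries and 3.77 ± 0.235 over the LIP libraries (SD, n = 3), with overlap (exact permutation p = 0.7, two-sided). *Etv6* over *Ets2* was 0.0472 ± 0.0111 and 0.0487 ± 0.00704, again with overlap (exact permutation p = 0.9). With so few libraries these ratios do not show that the genes moved alike. By contrast *Spi1* over *Klf2* went from 0.733 ± 0.0419 to 2.01 ± 0.282, and *Spi1* over *Klf6* from 1.23 ± 0.115 to 2.58 ± 0.121. In both ratios all LIP libraries were above all Ctrl libraries, for which the two-sided exact permutation p is 0.1, the smallest possible for 3 against 3. It is 0.125 after Benjamini-Hochberg adjustment over the 25 ratios compared. Of those, 20 were without overlap, where the FPKM of 66.1% of all genes tested did not overlap either. The 25 include the 10 members over the same mature neutrophil marker sum, and many others share a gene. They are therefore not separate results.

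No other Ets gene tested was called higher. Of 23 other Ets genes, 20 were listed and 12 tested. Under TMM 0 were called higher and 5 lower, against 26.5% and 27.2% of all genes tested. Their median was -0.22 on the log2 scale. *Spib*, the closest relative of *Spi1* and also a B cell marker, fell by 2.53 on the log2 scale (64.2 ± 8.76 to 8.94 ± 2.06 FPKM, edgeR adjusted p = 1.50e-06). *Ets1*, the lymphoid relative of *Ets2*, fell by 2.08 (68.3 ± 5.64 to 13.1 ± 0.699 FPKM, edgeR adjusted p = 2.09e-07). *Elf1*, *Elk4* and *Fli1* fell by 0.72, 0.60 and 0.33. *Spi1* over *Spib* therefore went from 3.92 ± 0.811 to 66.3 ± 12.5, and *Spi1* over *Ets1* from 3.64 ± 0.559 to 44.1 ± 3.65, both without overlap. The B and T cell marker sums fell in the same libraries, and their part in these ratios was not tested. *Fli1*, an Ets factor of megakaryocytes and endothelium, left the ratio *Spi1* over *Fli1* at 5.59 ± 0.799 in Ctrl and 20.2 ± 0.740 in LIP.

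The Runx genes moved apart. *Runx1* (ENSMUSG00000022952, chr16:92601466-92826149, minus strand) was at 9.02, 9.19 and 10.5 FPKM in Ctrl and at 6.89, 8.61 and 8.77 FPKM in LIP. The LIP values were lower in FPKM without overlap, but their TMM-scaled values overlapped, and the log2 fold change was 0.07 ± 0.1302 SE under TMM (edgeR adjusted p = 0.687) and -0.26 with library totals. A direction cannot be given for it. *Runx2* (ENSMUSG00000039153, chr17:44495987-44814797, minus strand) was at 2.31, 2.66 and 3.64 FPKM in Ctrl and at 4.29, 5.23 and 6.08 FPKM in LIP. Each LIP library was above the highest Ctrl library, and the log2 fold change was 1.16 ± 0.208 SE under TMM (edgeR adjusted p = 0.000919) and -0.75 with the neutrophil marker scaling. *Runx3* (ENSMUSG00000070691, chr4:135120652-135177990, plus strand) was at 7.88, 8.06 and 7.25 FPKM in Ctrl and at 3.54, 3.25 and 2.01 FPKM in LIP. It was the only member called lower under TMM, by 1.09 ± 0.227 SE on the log2 scale (edgeR adjusted p = 0.00237), and 18.4% of all genes tested had a smaller log2 fold change.

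Inside each library the shares of *Runx2* and *Runx3* differed between the groups without overlap, and that of *Runx1* overlapped. *Runx1* made up 47.4% ± 1.45 of the summed Runx FPKM in Ctrl and 49.7% ± 2.65 in LIP (SD, n = 3), with overlap (exact permutation p = 0.3). *Runx2* made up 14.1% ± 2.60 in Ctrl and 31.9% ± 3.65 in LIP, and *Runx3* 38.5% ± 3.92 and 18.3% ± 6.08. For both shares the exact permutation p was 0.1, the smallest possible, and 0.125 after adjustment. The ratio of *Runx2* to *Runx3* was 0.375 ± 0.111 in Ctrl and 1.95 ± 0.949 in LIP, so that *Runx2* lay under *Runx3* in every Ctrl library and over it in every LIP library. *Runx3* is known to act in T and NK cells. T cell markers were lower in LIP, 15 of 15 under TMM. Of 10 NK cell markers, 4 were called higher and 0 lower under TMM, against 26.5% and 27.2% of all genes tested. With library totals 0 were called higher and 1 lower, against 18.2% and 40% of all genes. The summed FPKM of the NK cell markers was lower in every LIP library than in any Ctrl library. The part of the T and NK cell markers in the *Runx3* value was not tested.

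**Figure D4:**
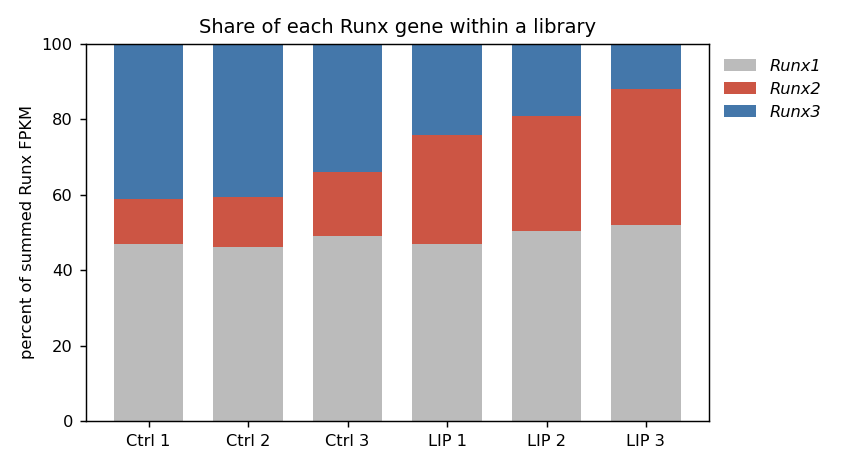
Percent of the summed FPKM of Runx1 (grey), Runx2 (red) and Runx3 (blue) in each library. The Runx1 share lies near 50% throughout, whereas the Runx2 share is larger and the Runx3 share smaller in all 3 LIP libraries than in any Ctrl library.

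The reads of *Runx2* may in part come from genes on the opposite strand that overlap it, since whether counting used strand is not given in the sources used here. *Runx2os2* rose from 0.898 ± 0.416 to 3.44 ± 0.806 FPKM (log2 fold change 2.22, edgeR adjusted p = 0.00387), while *Runx2os1* was not called (log2 fold change 1.31, edgeR adjusted p = 0.0704). *Runx2os2* had 20, 57 and 52 counts in Ctrl and 157, 218 and 131 in LIP, few beside the 1173, 1389 and 1826 and the 2300, 2821 and 3038 of *Runx2*. *Supt3*, also on the opposite strand, had 234, 406 and 231 counts in Ctrl and 182, 112 and 147 in LIP, lower in LIP where *Runx2* was higher. *Gm26626* overlaps *Runx1* and *Gm16224* overlaps *Runx3* in the same way. Of 10 Runx partner genes, 7 were tested, and the median was 0.00 on the log2 scale. Under TMM 1 was called higher and 0 lower, against 26.5% and 27.2% of all genes tested. The one that rose was *Tle3*, a Groucho corepressor, by 1.25 (edgeR adjusted p = 2.24e-05), though all 7 were lower, like most genes tested, with the neutrophil marker scaling. *Cbfb*, the obligate partner that stabilises Runx on DNA, was not called (log2 fold change -0.27, edgeR adjusted p = 0.258), nor was *Tle5*, the most abundant of the list (0.09, edgeR adjusted p = 0.524).

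*Gfi1* (ENSMUSG00000029275, chr5:107716657-107726036, minus strand) was low and varied widely between libraries. It had 339, 110 and 161 counts in Ctrl and 44, 143 and 64 in LIP, or 1.85, 0.578 and 0.881 against 0.226, 0.735 and 0.351 FPKM. The first Ctrl library stood well above the rest, and the groups overlapped. Fitted without a filter on low genes, where 15.9% of all genes were called, its log2 fold change was -0.98 ± 0.658 SE (edgeR adjusted p = 0.344). Its FPKM varied by 60.2% of the mean between the Ctrl libraries and by 60.7% between the LIP libraries, whereas counting error was 15.1% at its lowest count, so no difference was detectable at this spread. *A430072P03Rik* overlaps it on the opposite strand.

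Of 11 genes for its paralog and corepressors, 9 were tested, with a median of -0.05 on the log2 scale. Under TMM 0 were called higher and 3 lower, against 26.5% and 27.2% of all genes tested. The histone deacetylases *Hdac2* and *Hdac1* fell by 1.39 and 0.51 (edgeR adjusted p = 0.000205 and 0.00972), and the H3K9 methyltransferase *Ehmt2* fell by 0.74 (edgeR adjusted p = 0.0284). *Rcor1*, the CoREST scaffold, was not called (log2 fold change 0.15, edgeR adjusted p = 0.409), nor was the paralog *Gfi1b* of erythroid and megakaryocytic cells (0.14, edgeR adjusted p = 0.877).

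Of the Klf members only *Klf6* was called under TMM, and all 3 were lower, like 90.2% of all genes, with the neutrophil marker scaling. *Klf2* (ENSMUSG00000055148, chr8:72319033-72321656, plus strand) was at 323, 339 and 348 FPKM in Ctrl and at 314, 259 and 296 FPKM in LIP. As for *Runx1*, FPKM was lower in LIP without overlap while TMM-scaled values overlapped. Its log2 fold change was 0.09 ± 0.0982 SE under TMM (edgeR adjusted p = 0.456) and -0.24 with library totals, so no direction can be given. *Klf4* (ENSMUSG00000003032, chr4:55527143-55532466, minus strand) was at 8.23, 9.04 and 6.43 FPKM in Ctrl and at 4.21, 5.85 and 6.30 FPKM in LIP. Its lowest Ctrl and highest LIP libraries nearly met in FPKM, the TMM-scaled values overlapped, and the log2 fold change was -0.23 ± 0.227 SE (edgeR adjusted p = 0.412).

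*Klf6* (ENSMUSG00000000078, chr13:5861482-5870394, plus strand) was at 209.6, 211 and 183 FPKM in Ctrl and at 225, 223 and 221 FPKM in LIP. The LIP libraries lay within a narrow range just above the Ctrl range. The log2 fold change was 0.45 ± 0.0840 SE under TMM (edgeR adjusted p = 0.00111), but 0.13 with library totals, where it was not called (edgeR adjusted p = 0.197), and the call was also lost in limma on log2(FPKM + 1) (0.15, adjusted p = 0.153). Inside a library *Klf6* over *Klf2* went from 0.599 ± 0.0640 to 0.775 ± 0.0747 without overlap (exact permutation p = 0.1, the smallest possible), and *Klf4* over *Klf2* was 0.0235 ± 0.00443 and 0.0191 ± 0.00499 with overlap (exact permutation p = 0.3).

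In the wider Klf and Sp family 18 of 23 genes were listed and 12 tested. Under TMM 5 of them were called higher and 0 lower, against 26.5% and 27.2% of all genes tested. Their median was 0.38 on the log2 scale. *Klf5* rose by 1.73 and *Klf7* by 1.48 (edgeR adjusted p = 0.000308 and 5.52e-06). *Klf10*, a gene induced by TGF-beta, rose by 0.87 and *Klf3*, a CtBP-binding repressor, by 0.83. *Klf13*, with *Klf3* the most abundant of the list at a mean of 62.6 FPKM, rose by 0.36 (edgeR adjusted p = 0.00850). With library totals 4 were called higher and 2 lower, against 18.2% and 40% of all genes, and with the neutrophil marker scaling 0 higher and 11 lower, against 0.335% and 90.2%. The other Ets genes had 0 called higher under each of these scalings.

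Genes known to be controlled by the members were counted from lists of textbook targets. Of 17 PU.1 target genes, 16 were tested, and the median was 1.21 on the log2 scale. Under TMM 13 were called higher and 0 lower, against 26.5% and 27.2% of all genes tested. The 3 not called were *Fcgr1* at 0.79, *Btk* at -0.15 and *Elane* at -1.33. *Mpo*, below the level required for testing, went from 0.821 to 0.067 FPKM without overlap. *Tlr4*, the endotoxin receptor, rose by 2.58, *Csf3r*, the G-CSF receptor, by 1.84 and *Itgam*, which encodes CD11b, by 1.74 (edgeR adjusted p = 4.54e-06, 2.24e-06 and 4.39e-05). The abundant *Lyz2*, encoding lysozyme, rose by 1.12 and *Cd14*, the endotoxin co-receptor, by 1.63. The oxidase genes *Cybb* and *Ncf1* rose by 0.42 and 1.05. *Csf3r* and *Itgam* are also on the mature neutrophil list, *Elane* and *Mpo* on a list of immature neutrophil markers, and *Csf1r* on the monocyte list. *Elane* and *Mpo* do not stand for the immature list as a whole. Of its 6 tested genes, 3 were called higher and 0 lower under TMM. Its summed FPKM was 660.7 to 780.2 in Ctrl and 808.3 to 889.7 in LIP. *Csf1r* is counted again below among the genes repressed by Gfi1, and *Cd14* among the targets of Klf2 or Klf4. With libraries set level on the mature neutrophil markers, 1 of the 16 was called higher and 13 lower, against 0.335% and 90.2% of all genes.

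Of 8 genes that Gfi1 is known to repress, 6 were called higher and 1 lower, against 26.5% and 27.2% of all genes tested. Their median was 0.68. The monocyte growth factor receptor *Csf1r* rose by 1.39 and its ligand *Csf1* by 1.17 (edgeR adjusted p = 8.55e-05 and 3.15e-05). *Egr1*, the most abundant at a mean of 396.4 FPKM, rose by 0.97, *Id2* rose by 0.63 and the chemokine receptor *Cxcr4* by 0.39. *Irf8*, a factor of monocytes, dendritic cells and B cells, fell by 1.15 (edgeR adjusted p = 1.07e-05). Of 7 genes known as targets of Klf2 or Klf4, 4 rose and 2 fell, against the same shares of all genes, with a median of 0.86. The sphingosine phosphate receptor *S1pr1* fell by 2.29 (46.9 ± 4.57 to 7.71 ± 2.96 FPKM) and the integrin *Itgb7* by 0.53, while *Cd14* rose by 1.63, *Thbd*, encoding thrombomodulin, by 1.15 and *Cdkn1a*, a cell cycle inhibitor, by 0.86. With library totals these last 2 lists had 4 higher and 1 lower, and 4 higher and 2 lower, and with the neutrophil marker scaling 8 of 8 and 7 of 7 were lower, as were 90.2% of all genes under that scaling.

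**Figure D5:**
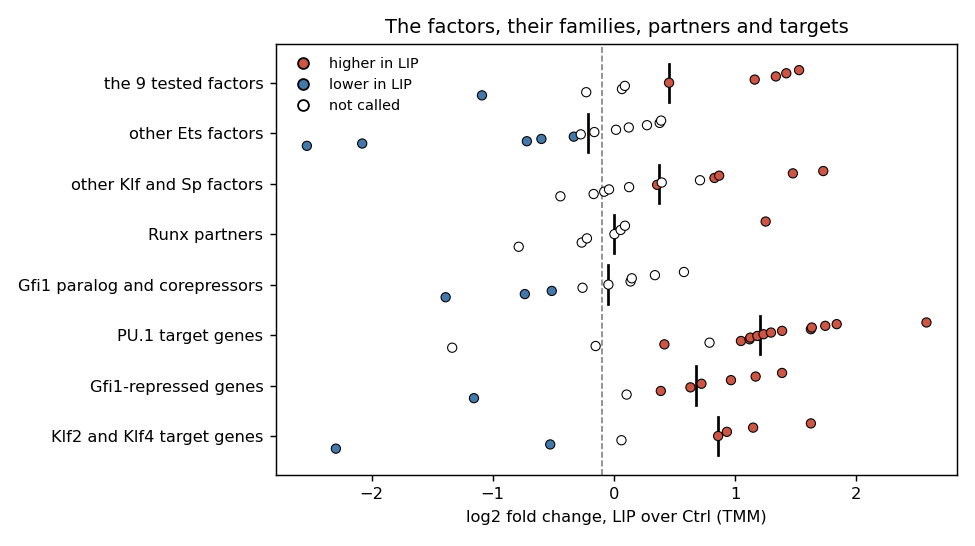
Log2 fold change under TMM, LIP over Ctrl, of each tested gene (circles) of the members, their wider families, partners and targets, filled red where called higher and blue where called lower, with list medians as bars and the median of all genes tested, -0.09, as a dashed line. All called other Ets genes lie to the left and all called other Klf and Sp genes to the right.

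The genes whose pattern over the 6 libraries was most like that of each member were found by the root mean square difference in log2(CPM + 0.5), each gene centred on its own mean. The added 0.5 damps the differences of genes with few counts. For *Spi1* these were *Tyrobp*, an adaptor of myeloid receptors, and *Hdac4*, at 0.0192 and 0.0212. *Ets2* had *Prkar2b* and *Il4ra* (0.0475 and 0.0580), and *Etv6* had *Sos2* and *Inpp4a* (0.0869 and 0.102). *Runx2* had *Camk1* at 0.0869 and *Gm8865*, a gene of 1.09 CPM whose own log2 fold change of 1.73 was damped, and *Runx3* had *Gm7324* and *Zfas1* (0.0653 and 0.0661). *Klf6* had *Creb3* (0.0454). The nearest genes of the members without a call were *Wbp11* and *Mir5135* for *Runx1*, *Exoc3* and *Mob2* for *Klf2*, and *Clnk* and *Mcrs1* for *Klf4*, the first of each pair at 0.0673, 0.0535 and 0.0534. *Mir5135* had a mean of 0.0984 CPM and a log2 fold change of 0.54, so its likeness to *Runx1* rests on that damping, and *Clnk*, with a mean of 1.905 CPM, was damped as well.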

How the data were processed

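RNA-seq was analysed from 6 libraries of PB neutrophils, 3 Ctrl and 3 LIP, grouped by the sample titles. The authors deposited raw counts and FPKM values per gene in 1 table. Per the labels and the submitters' processing notes, reads were trimmed with cutadapt 1.9, checked with FastQC and assigned to GRCm38. The aligner settings, the counting and its use of strand are not given in the sources used here. Smart-seq2 reads carry no molecular identifiers, so counts are of fragments, not of molecules.

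A mean of 1 FPKM or more was required (10440 of 29097 genes). The test was made on the deposited counts by the quasi-likelihood test of edgeR 4.0.16 in R 4.3.3. It used TMM factors, no replicate block and Benjamini-Hochberg adjustment. The SE of an edgeR log2 fold change was taken as its absolute value divided by the square root of the F statistic of the test. The scripts were tested on simulated counts in which only a small part of the genes changed. That setting does not cover the wide shifts between these libraries. Alternatives were median-of-ratios factors, library totals, scaling on 15 mature neutrophil markers, DESeq2 1.42.0, limma 3.58.1 on log2(FPKM + 1) and log2(FPKM + 0.1), other filters (none, filterByExpr, a mean of 5 FPKM or more), a replicate block, each library left out in turn, and counts per kilobase for the order of levels. Ratios within libraries and marker sums were compared by exact permutation tests over samples with SciPy 1.17.1. The deposited FPKM and counts were taken as given, and 50 gene names on several rows were kept apart by gene ID.

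Named genes were all 10 members, of each list up to 3 of the highest and up to 3 of the lowest log2 fold changes among called genes and the 2 highest in mean FPKM, every called gene of a list with 5 or fewer calls, the 2 genes most like each tested member, and the 2 most abundant of the marker lists. Some genes that meet this rule are not reported here. The members and the lists were chosen with earlier results of these data known, so counts over them are descriptions. *Gfi1b* was named after its values were seen. Same-numbered libraries were not treated as pairs, as each library pools other mice.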

Additional observations from a re-analysis of the deposited data

How the results depend on the processing

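The calls for *Spi1*, *Ets2*, *Etv6*, *Runx2* and *Runx3* and their directions were the same under every alternative in which they were tested except the scaling on mature neutrophil markers, where *Runx3* alone kept its direction. *Runx2* was not tested with the filter at a mean of 5 FPKM. Over the leave-one-out fits, 5 members were called higher and 1 lower each time, 2419 to 2615 of all genes higher and 2255 to 2770 lower, and 25 to 27 genes of the wider families, partners and targets higher and 9 to 11 lower, against 2766, 2835, 27 and 11 with all libraries. *Spi1* ranged from 1.48 to 1.61 and *Runx3* from -1.25 to -0.88.

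With neutrophil marker scaling, 0 members were called higher and 8 lower, 35 of all genes higher and 9417 lower, and 1 gene of the wider families, partners and targets higher and 65 lower. The log2 fold changes were then -0.39 for *Spi1*, -0.59 for *Ets2*, -0.50 for *Etv6* (not called, edgeR adjusted p = 0.05997), -0.75 for *Runx2*, -1.85 for *Runx1*, -1.82 for *Klf2* and -1.46 for *Klf6*. This follows from the scaling itself, which moved the median of all genes to -2.01. With library totals *Runx1* was -0.26 and *Klf2* -0.24, and 18 genes of the wider families, partners and targets were lower. With limma on log2(FPKM + 1) they were -0.22 and -0.22, with 17 lower, and with 0.1 added -0.24 and -0.22, where *Klf6* was 0.15 (adjusted p = 0.148). With that filter they were -0.11 and -0.088, and 1761 of all genes were called higher, fewer genes being tested. With library totals the median of all genes was -0.42, against -0.09 under TMM, so the members moved with all genes. *Runx1* lay 0.16 above that median under both scalings, and *Klf2* 0.19 above it. The cause of the other shifts was not tested.

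The correlations of the deviations of same-numbered libraries were 0.0133, 0.0521 and 0.0301, so the numbers were not taken as pairs. Not every library correlated best with its own number. With a replicate block 2724 of all genes were called higher and 2822 lower, *Spi1* was 1.53 and *Runx3* -1.13, and no member's call changed. *Gfi1* had the fewest counts of the members, 44 in its lowest library, and varied between libraries by more than counting error. In the order of levels by TMM-scaled counts per kilobase, all 10 members kept their places in each group.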
